A study of Mus musculus with 9 samples.

Results

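The circadian clock genes described here are 10 genes of the daily timekeeping loop: the activators Arntl and Clock, the period genes Per1, Per2 and Per3, the cryptochromes Cry1 and Cry2, the nuclear receptors Nr1d1 and Nr1d2, and the output factor Dbp. They were chosen by name, and each was measured by 1 probe set that names only that gene, so 10 of 19938 genes tested belong to the set. RNA from mouse brain, described as cortex for the series, was measured on 9 Affymetrix arrays in 3 groups of 3, labelled as biological replicates. APP-amylin mice carried the 5xFAD transgenes and received human amylin, a hormone of the pancreatic beta cell; APP-PBS mice carried the same transgenes and received phosphate-buffered saline (PBS); WT mice were B6SJLF1/J wild type and received PBS. All mice were about 5 months old and were injected into the peritoneum every day for 10 weeks. The 5xFAD line expresses mutant human amyloid precursor protein and presenilin from Thy1 promoters in neurons and forms plaques. The labels used here give neither the hour at which the brains were taken nor the sex of the mice.

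In mammalian cells the proteins CLOCK and BMAL1 (the product of Arntl) pair, bind E-box elements and switch on the Per, Cry, Nr1d and Dbp genes. PER and CRY proteins return to the nucleus and block that pair, which closes a loop of about a day. The Nr1d proteins (REV-ERB alpha and beta) repress Arntl, so Arntl transcripts peak when those of Per, Nr1d and Dbp genes are low. Most brain regions, cortex included, run this loop in neurons and glia.

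The elements through which the loop acts were looked for around the annotated starts of the genes, in RefSeq windows (GRCm38.p6) of 250 bases before to 50 after a start. Of the 10 genes, 9 had such windows, 13 in all, and Per2 had none. Bases outside the windows were not searched, so a missing match does not mean that a gene lacks the element. Searched on both strands were the E-box CACGTG, its variant CACGTT (the E-prime box), the D-box TTATGTAA that DBP and its relatives bind, the half-site AGGTCA of nuclear receptors such as REV-ERB and ROR, and the cAMP response element (CRE) TGACGTCA with its half-site TGACG, which is part of the full element. The D-box was found in Per3 alone among the 9 genes, in 2 copies that begin 205 and 158 bases upstream of the start, whereas 0.938% of all 32851 windows held one. The E-box was found in Per1 and Cry1 (7.15% of all windows), the E-prime box in Cry1, Cry2 and Nr1d1 (4.68%), and the receptor half-site in Per1, Nr1d2, Arntl and Clock (16.3%). A gene is named if any of its windows held a match, whereas the percentages are of single windows, so the 2 are not like for like. The full CRE was found in none of the 9 genes (1.79% of all windows), and its half-site in Per1, Cry1 and Cry2 (20.8%). The 250 upstream bases of 4 genes are printed, 5′ to 3′ on the strand of the gene: Nr1d1 and Per3, the members that passed the test below, and Per1 (at the first of its 2 listed starts) and Cry1, which carry the E-box. Capitals mark the E-prime box of Nr1d1 (written AACGTG on this strand), the D-boxes of Per3, the E-box of Per1, and both kinds of E-box in Cry1.
Nr1d1, chr11:98775378-98775627, minus strand: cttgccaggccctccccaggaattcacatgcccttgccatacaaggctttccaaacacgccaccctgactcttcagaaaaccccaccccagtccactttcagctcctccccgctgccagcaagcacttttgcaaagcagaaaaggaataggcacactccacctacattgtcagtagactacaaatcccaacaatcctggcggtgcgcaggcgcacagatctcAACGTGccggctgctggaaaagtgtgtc
Per3, chr4:151044666-151044915, minus strand: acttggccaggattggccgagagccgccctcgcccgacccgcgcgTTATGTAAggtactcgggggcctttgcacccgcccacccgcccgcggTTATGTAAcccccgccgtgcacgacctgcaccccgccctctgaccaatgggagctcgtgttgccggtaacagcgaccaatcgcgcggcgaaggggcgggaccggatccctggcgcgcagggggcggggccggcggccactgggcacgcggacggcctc
Per1, chr11:69098699-69098948, plus strand: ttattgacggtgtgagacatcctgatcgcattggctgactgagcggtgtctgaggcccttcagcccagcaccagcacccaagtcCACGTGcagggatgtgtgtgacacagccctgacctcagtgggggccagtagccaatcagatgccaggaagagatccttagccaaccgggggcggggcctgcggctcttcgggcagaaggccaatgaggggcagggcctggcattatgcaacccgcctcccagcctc
Cry1, chr10:85185055-85185304, minus strand: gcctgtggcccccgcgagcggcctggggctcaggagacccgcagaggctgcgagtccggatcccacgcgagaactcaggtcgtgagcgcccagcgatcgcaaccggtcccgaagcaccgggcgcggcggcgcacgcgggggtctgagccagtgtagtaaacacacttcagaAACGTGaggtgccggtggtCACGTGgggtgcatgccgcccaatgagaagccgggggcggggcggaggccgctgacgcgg

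**Figure D1:**
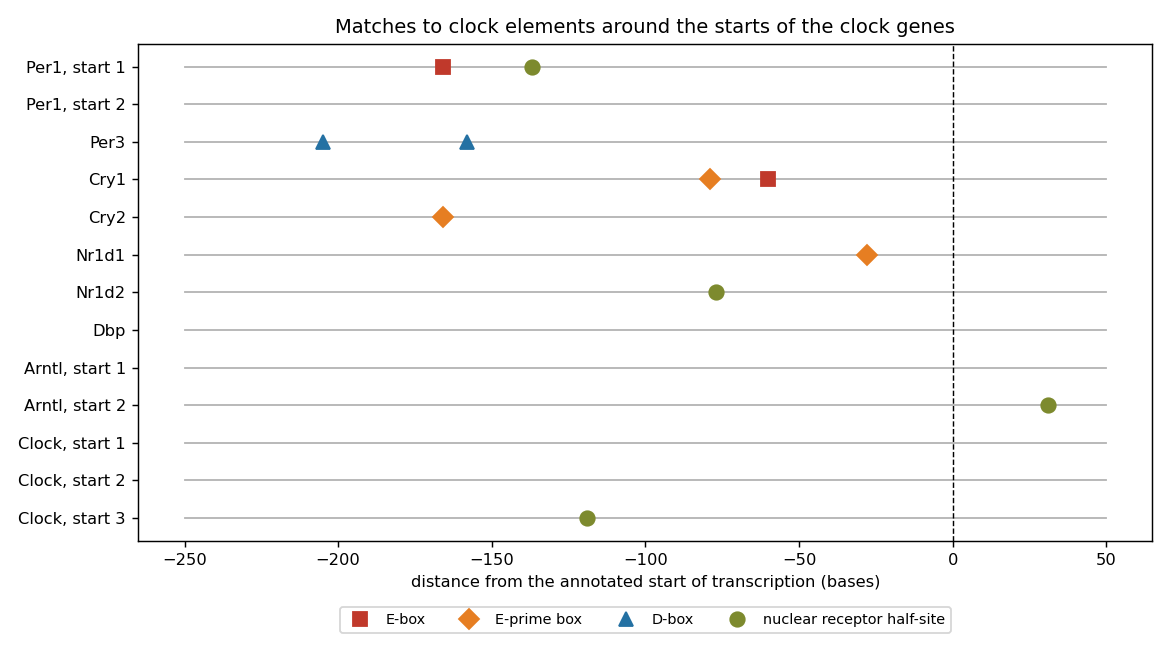
Positions of matches to the E-box, E-prime box, D-box and nuclear receptor half-site (the CRE half-site is not drawn) around the annotated starts of 9 clock genes, with 1 line per start and the distance in bases on the horizontal axis. Per3 is the gene with D-boxes, 205 and 158 bases upstream, and Nr1d1 has an E-prime box 28 bases upstream.

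All values are the deposited log2 intensities, and differences are on the log2 scale with the standard error (SE) of 1 limma fit of all 9 arrays. The threshold for a change was an adjusted p (Benjamini-Hochberg) under 0.05 over all 19938 genes, and the 95% confidence intervals are not adjusted for the number of genes. Median log2 values per array ran from 5.71 to 5.79, and the number of arrays limits the precision. A level belongs to its own probe set, so levels are compared between samples and not between genes. In RNA of bulk tissue, fewer cells of a type and less RNA per cell cannot be told apart. The arrays also differed in regional content: all 11 measured striatal markers were higher in APP-PBS than in WT mice, and 10 of 12 hippocampal and 11 of 13 thalamic markers were lower. Of all genes 3.66% were called higher and 4.92% lower in APP-PBS than in WT mice. The shares for APP-amylin relative to WT mice were 2.35% higher and 2.86% lower, and all marker counts here are read beside these shares. The striatal list averaged 9.05 to 9.20 on APP-amylin, 9.05 to 9.30 on APP-PBS and 7.51 to 7.72 on WT arrays. The thalamic list averaged 7.19 to 7.75 on APP-amylin, 7.32 to 7.46 on APP-PBS and 8.18 to 8.45 on WT arrays. Genotype and regional content cannot be told apart in either comparison with WT. Of the cortical neuron markers, 3 of 11 measured were lower in APP-PBS than in WT mice, with list averages of 9.30 to 9.65 on APP-PBS and 9.48 to 9.67 on WT arrays. Of 11 microglial markers 10 rose in each comparison with WT, and the list averaged 8.01 to 8.47 on APP-amylin, 8.14 to 8.72 on APP-PBS and 7.12 to 7.15 on WT arrays. Of 9 measured oligodendrocyte markers 5 fell in APP-amylin and 1 fell in APP-PBS relative to WT mice. That list averaged 9.03 to 9.20 on APP-amylin, 9.30 to 9.48 on APP-PBS and 9.43 to 9.63 on WT arrays, so the APP-amylin arrays lay below both other groups. The part of microglia and oligodendrocytes in the values of the clock genes was not tested.

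The first comparison was of APP-PBS with WT mice, in which genotype and regional content cannot be told apart. Nr1d1 fell and Per3 rose in APP-PBS mice; the other 8 clock genes, Dbp and the activators among them, did not pass. These 2 of 10 compare with 8.58% of all genes called in this comparison, 3.66% higher and 4.92% lower. The differences of the members ran from -0.46 to 0.33, with 5 above and 5 below zero and a median of 0.02, against a median of -0.01 over all genes. In 4 of the 10 the groups did not overlap, and 26.8% of all genes did not overlap here.

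Nr1d1 encodes REV-ERB alpha, the haem-binding repressor of Arntl whose E-prime box is shown above. Its log2 intensity (probe set 10390691) was 9.68, 9.54 and 9.72 on the APP-amylin arrays, 9.65, 9.72 and 9.61 on the APP-PBS arrays, and 10.08, 9.99 and 10.27 on the WT arrays. Every 5xFAD array was below every WT array, while the 2 groups of 5xFAD arrays overlapped. Nr1d1 fell by 0.46 ± 0.08 (SE) in APP-PBS mice relative to WT mice, to 0.727 times the WT intensity (limma adjusted p = 0.00709), and remained past the threshold in all 19 other settings of the fit, with adjusted p from 0.00345 to 0.036. In APP-amylin mice relative to WT mice it fell by 0.47 ± 0.08, to 0.721 times (limma adjusted p = 0.00922). That second call was lost with the olfactory bulb marker mean as a term (limma adjusted p = 0.0772), though the difference of -0.51 was as large. Of 12 measured olfactory bulb markers 2 rose in APP-amylin relative to WT mice, where 2.35% of all genes rose. All 12 means were higher there, with a median difference of 1.06. In APP-PBS relative to WT mice 1 bulb marker rose (median 0.95), where 3.66% of all genes rose. The bulb list averaged 7.58, 6.73 and 7.72 on APP-amylin, 7.87, 6.43 and 7.05 on APP-PBS and 6.32, 6.06 and 6.17 on WT arrays. The part of bulb tissue in the Nr1d1 values was not tested.

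The Nr1d1 gene overlaps Thra, the thyroid hormone receptor alpha gene, which is read from the other strand. Thra, looked at after the values of Nr1d1 were seen, had 11.17, 11.20 and 11.12 on APP-amylin, 11.03, 10.94 and 11.06 on APP-PBS and 11.26, 11.12 and 11.27 on WT arrays. It differed by -0.21 ± 0.06 between APP-PBS and WT mice and did not pass (limma adjusted p = 0.0597). Whether one probe set picks up RNA of the other gene was not tested.

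Nr1d2 encodes REV-ERB beta, which acts on the same elements as REV-ERB alpha. Its values were 9.57, 9.54 and 9.51 on APP-amylin, 9.56, 9.73 and 9.56 on APP-PBS and 9.47, 9.56 and 9.60 on WT arrays, and the 3 groups overlapped. It differed by 0.07 ± 0.06 between APP-PBS and WT mice (95% confidence interval -0.07 to 0.21, limma adjusted p = 0.599). Within an array, Nr1d1 minus Nr1d2 averaged 0.04 ± 0.05 in APP-PBS mice and 0.57 ± 0.12 in WT mice (SD, n = 3 each). Only the shift of this difference between groups has a meaning, since the 2 genes have different probes. The groups did not overlap in it (two-sided p = 0.1 by an exact permutation test, the lowest value that 3 against 3 arrays allow; adjusted p = 0.15 over the 12 tests of 4 gene pairs in 3 comparisons, chosen after the values were seen).

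Of the period genes Per3 passed and Per1 and Per2 did not. Per3 (probe set 10518781), whose promoter carries the D-boxes and whose protein is the least needed of the 3 for rhythm in mice, had 7.50, 7.40 and 7.51 on APP-amylin, 7.50, 7.69 and 7.68 on APP-PBS, and 7.35, 7.33 and 7.20 on WT arrays. Every 5xFAD array was above every WT array. Per3 rose by 0.33 ± 0.07 in APP-PBS mice relative to WT mice, 1.26-fold (limma adjusted p = 0.0197). The call was lost without APP-PBS replicate 2 (0.29, adjusted p = 0.0691) or 3 (0.30, adjusted p = 0.0777), without WT replicate 3 (0.28, adjusted p = 0.0776), and with the olfactory bulb marker mean as a term (0.37, adjusted p = 0.0699). In APP-amylin mice the difference from WT was 0.18 ± 0.07 and did not pass (limma adjusted p = 0.203).

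Per1, a repressor that also responds at once to light, neuronal activity and glucocorticoids, had 8.50, 8.18 and 8.21 on APP-amylin, 8.39, 8.21 and 8.27 on APP-PBS and 8.49, 8.44 and 8.80 on WT arrays. All APP-PBS values lay below all WT values, and 1 APP-amylin array reached into the WT range. The differences from WT were -0.29 ± 0.11 for APP-PBS and -0.28 ± 0.11 for APP-amylin mice, and neither passed (limma adjusted p = 0.163 and 0.195). Without WT replicate 3, the highest array, the APP-PBS difference shrank to -0.18. Per2, the repressor most needed for rhythm in mice alongside Per1, had 7.51, 7.55 and 7.54 on APP-PBS arrays and 7.55, 7.51 and 7.55 on WT arrays, a difference of -0.0027 ± 0.06 (95% confidence interval -0.14 to 0.13). Within an array, Per3 minus Per1 averaged -0.67 ± 0.20 in APP-PBS mice and -1.28 ± 0.28 in WT mice (SD, n = 3 each), without overlap (two-sided p = 0.1 and adjusted p = 0.15 by the same exact permutation test). Every APP-PBS array lay above every WT array in Per3 and below every WT array in Per1. The lack of overlap and the result of that test followed from this, and they are no support for a change in Per1.

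Per1 did not pass in either comparison with WT. Lists of genes that answer to neuronal activity or glucocorticoids, inputs to which Per1 also responds, had lower averages on the 5xFAD than on the WT arrays. Of 17 measured immediate early genes, which neurons switch on with activity, 3 fell and 0 rose in APP-PBS relative to WT mice, where 4.92% of all genes fell, and all 17 had lower means (median -0.38). Of 15 measured glucocorticoid-responsive genes 7 fell and 0 rose (median -0.40), among them the co-chaperone gene Fkbp5 (-0.57 ± 0.05). Between APP-amylin and WT mice 7 of the immediate early and 5 of the glucocorticoid-responsive genes fell and 0 rose, where 2.86% of all genes fell. The immediate early list averaged 7.10 to 7.52 on APP-amylin, 7.30 to 7.53 on APP-PBS and 7.74 to 7.90 on WT arrays. The glucocorticoid list averaged 8.19 to 8.41 on APP-amylin, 8.06 to 8.36 on APP-PBS and 8.54 to 8.57 on WT arrays. Fkbp5 was near the WT level in APP-amylin mice (-0.0086 ± 0.05). It was higher there than in APP-PBS mice by 0.56 ± 0.05 (limma adjusted p = 0.0233). In that comparison 11 of the 15 glucocorticoid-responsive genes had higher means and 4 had lower means. The part of either input in the Per1 values was not tested.

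The cryptochromes are the strongest repressors of the CLOCK and BMAL1 pair. Cry1 had 7.56, 7.27 and 7.47 on APP-amylin, 7.27, 7.20 and 7.30 on APP-PBS and 7.18, 7.14 and 7.18 on WT arrays, with every 5xFAD array above every WT array. The difference from WT was 0.09 ± 0.07 in APP-PBS mice (limma adjusted p = 0.565) and 0.27 ± 0.07 in APP-amylin mice (1.20-fold, limma adjusted p = 0.0671), and neither passed. The second passed without APP-amylin replicate 2 (0.35, adjusted p = 0.0136) and with the lowest 50% of genes left out (adjusted p = 0.0363). Cry2 had 8.62, 8.45 and 8.44 on APP-amylin, 8.45, 8.42 and 8.53 on APP-PBS and 8.64, 8.53 and 8.75 on WT arrays. It differed from WT by -0.17 ± 0.07 in APP-PBS and by -0.13 ± 0.07 in APP-amylin mice (limma adjusted p = 0.205 and 0.363), and both groups overlapped WT.

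Dbp encodes a factor that binds D-boxes and is among the genes of widest daily swing in most rodent tissues. Its values were 9.17, 9.07 and 9.16 on APP-amylin, 9.21, 9.34 and 9.17 on APP-PBS and 9.24, 8.99 and 9.19 on WT arrays, and the WT range covered both APP-amylin extremes. The differences from WT were 0.10 ± 0.07 in APP-PBS mice (95% confidence interval -0.07 to 0.26) and -0.0054 ± 0.07 in APP-amylin mice (-0.17 to 0.16). Neither passed (limma adjusted p = 0.527 and 0.986).

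**Figure D2:**
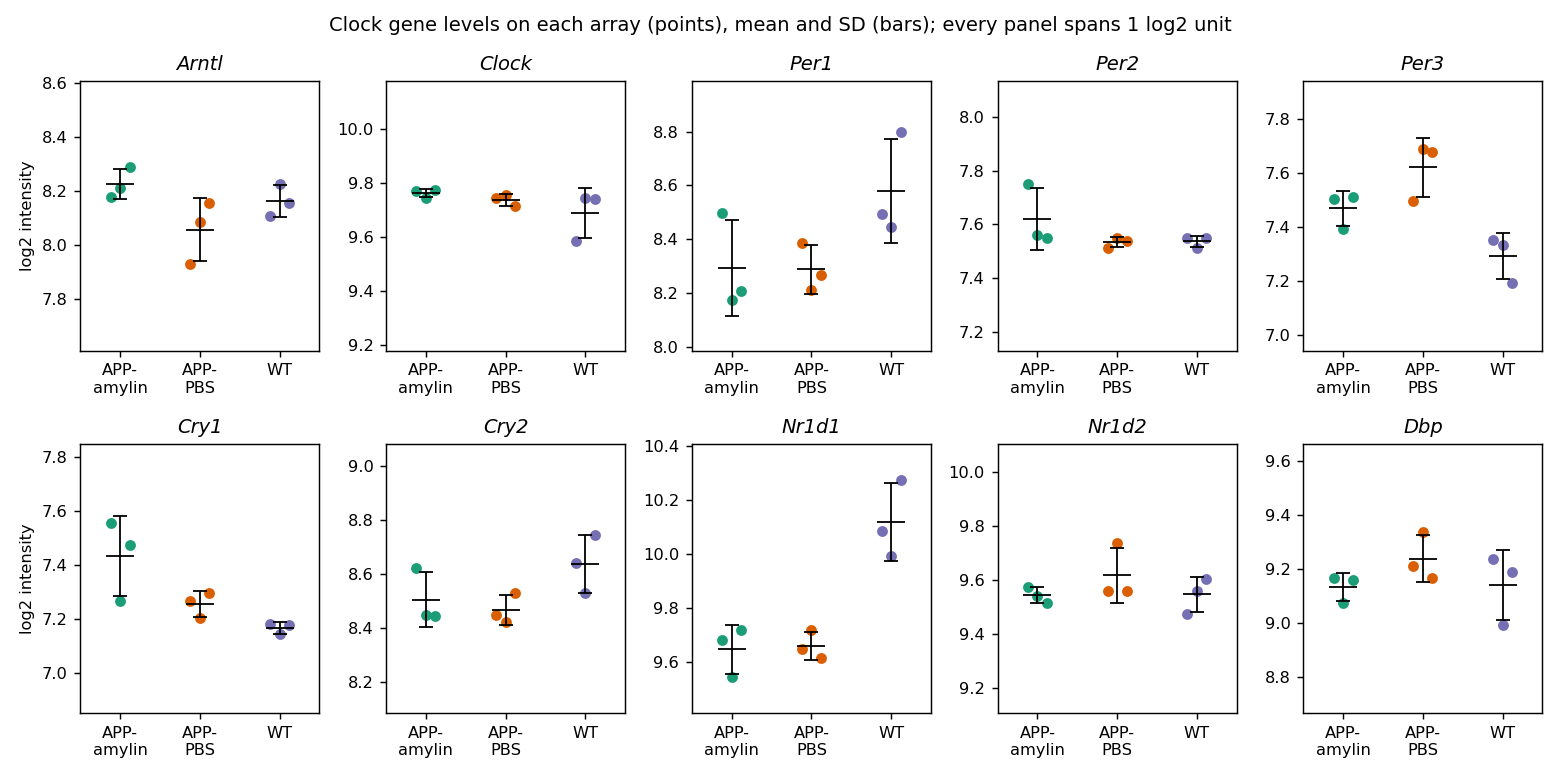
Log2 intensity of each clock gene on each of the 9 arrays (points), with the group mean and SD as bars. Nr1d1 lies between 9.54 and 9.72 on the 6 5xFAD arrays and between 9.99 and 10.27 on the WT arrays, and Per3 lies above the WT arrays on all 6.

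The activators make up the positive limb. Arntl had 8.18, 8.21 and 8.29 on APP-amylin, 7.93, 8.08 and 8.16 on APP-PBS and 8.11, 8.23 and 8.16 on WT arrays. APP-PBS and WT mice overlapped, with a difference of -0.11 ± 0.07 (95% confidence interval -0.26 to 0.04, limma adjusted p = 0.431). Clock, whose transcript cycles weakly if at all in mouse tissues, had 9.77, 9.75 and 9.77 on APP-amylin, 9.75, 9.76 and 9.72 on APP-PBS and 9.58, 9.75 and 9.74 on WT arrays. Its differences from WT were 0.05 ± 0.05 in APP-PBS and 0.07 ± 0.05 in APP-amylin mice (limma adjusted p = 0.704 and 0.523).

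**Figure D3:**
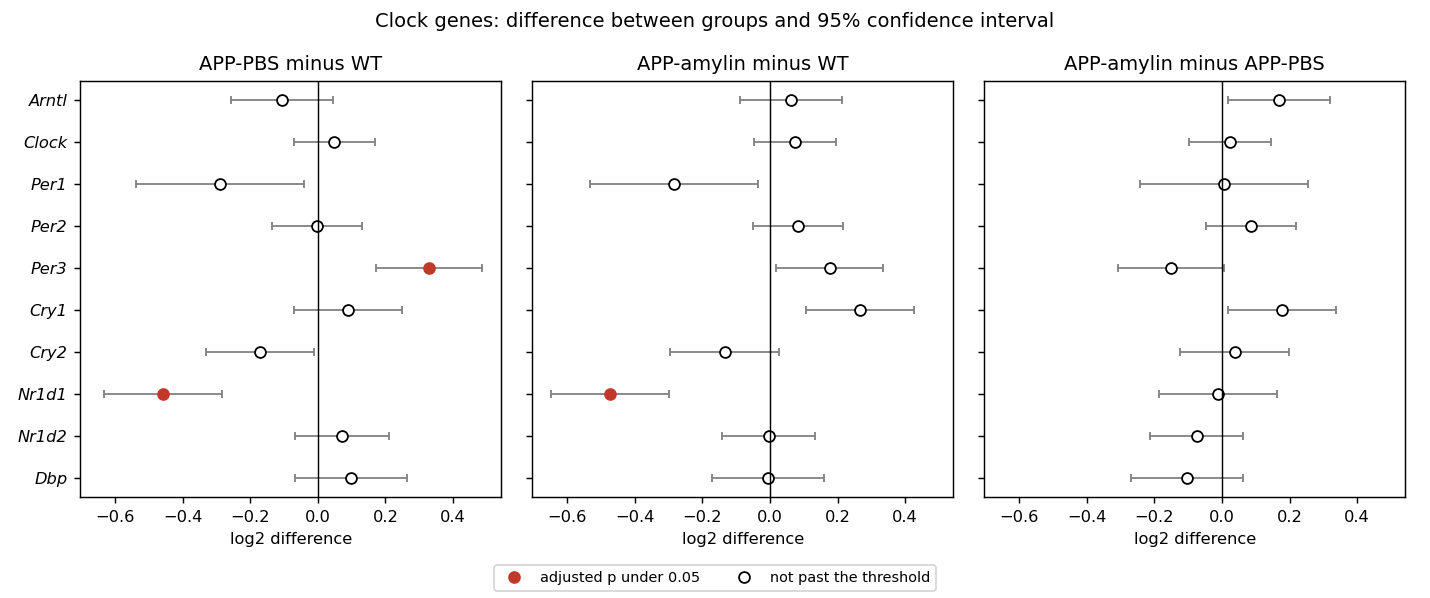
Log2 differences of the 10 clock genes with 95% confidence intervals, in the 3 comparisons. Filled points passed the threshold: Nr1d1 in both comparisons with WT and Per3 in APP-PBS against WT; no gene passed for amylin against PBS.

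The comparison of APP-amylin with WT mice shares the WT arrays with that of APP-PBS, so the 2 are not independent. Of the 10 clock genes 1 changed, Nr1d1, which was lower, against 5.21% of all genes called, 2.35% higher and 2.86% lower. In 3 of the 10 the groups did not overlap (Nr1d1, Per3 and Cry1), against 23.1% of all genes. The member differences ran from -0.47 to 0.27 with a median of 0.03.

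The last comparison was of APP-amylin with APP-PBS mice, within the 5xFAD mice. No clock gene passed: 0 of 10 were called by limma, against 0.00502% of all genes (1 gene, Fkbp5). Cry1 and Arntl, 2 of the 10, had an unadjusted p under 0.05. The share of all genes at that cut was not counted, so this and later counts at it have no background beside them. The member differences ran from -0.15 to 0.18. Arntl differed by 0.17 ± 0.07 (1.12-fold, unadjusted p = 0.0316, limma adjusted p = 0.706) and was the 1 member of 10 whose groups did not overlap, which 9.3% of all genes did. Cry1 differed by 0.18 ± 0.07 (1.13-fold, unadjusted p = 0.0341, limma adjusted p = 0.712) and its groups overlapped. Per3 differed by -0.15 ± 0.07 (limma adjusted p = 0.732).

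For the 2 genes that changed between APP-PBS and WT mice, the intervals describe the size of an amylin difference. The APP-PBS arrays that singled out these genes are also the reference here, a choice that favours amylin differences toward WT. Nr1d1 differed by -0.01 ± 0.08 between APP-amylin and APP-PBS mice (95% confidence interval -0.19 to 0.16), and by -0.65 to -0.30 between APP-amylin and WT mice. For Per3 the interval ran from -0.31 to 0.0059 between APP-amylin and APP-PBS mice and from 0.02 to 0.33 between APP-amylin and WT mice. Per1 and Per2 differed by 0.01 ± 0.11 and 0.09 ± 0.06, Cry2 by 0.04 ± 0.07, Nr1d2 by -0.08 ± 0.06, Dbp by -0.10 ± 0.07 and Clock by 0.02 ± 0.05. The Per2 difference rests on APP-amylin replicate 1, which had 7.75 against 7.56 and 7.55 in the other APP-amylin arrays; without it the difference was 0.02. That array was the highest of its group for 6 of the 10 clock genes.

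In mouse tissues Arntl and the Per and Nr1d genes peak at opposite hours, so the positive and negative limbs were also described apart. The negative limb, taken as the mean of the 3 Per, 2 Cry and 2 Nr1d genes, was 8.45, 8.28 and 8.35 on APP-amylin, 8.33, 8.36 and 8.36 on APP-PBS and 8.40, 8.36 and 8.48 on WT arrays. The positive limb, the mean of Arntl and Clock, was 8.98, 8.98 and 9.03 on APP-amylin, 8.84, 8.92 and 8.94 on APP-PBS and 8.85, 8.99 and 8.95 on WT arrays. APP-amylin and APP-PBS arrays did not overlap in the positive limb, and all other pairs of groups overlapped in both limbs. The limb means also hold the Cry genes, which the contrast of opposite hours leaves out, and Clock, which cycles weakly if at all. Their difference is therefore a coarse description that cannot date the samples.

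The negative minus the positive limb averaged -0.64 ± 0.10 in APP-amylin mice, -0.55 ± 0.04 in APP-PBS mice and -0.52 ± 0.10 in WT mice (SD, n = 3 each). The difference between APP-PBS and WT was -0.03, smaller in size than the SD of either group. That between APP-amylin and APP-PBS was -0.09, smaller than the SD of the APP-amylin arrays and larger than that of the APP-PBS arrays. That between APP-amylin and WT was -0.12, somewhat larger than the SD of either group. No test was made of these scores, since the genes were chosen with earlier results of these data known. Between APP-PBS and WT mice the negative limb held both the gene that fell, Nr1d1, and the gene that rose, Per3.

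**Figure D4:**
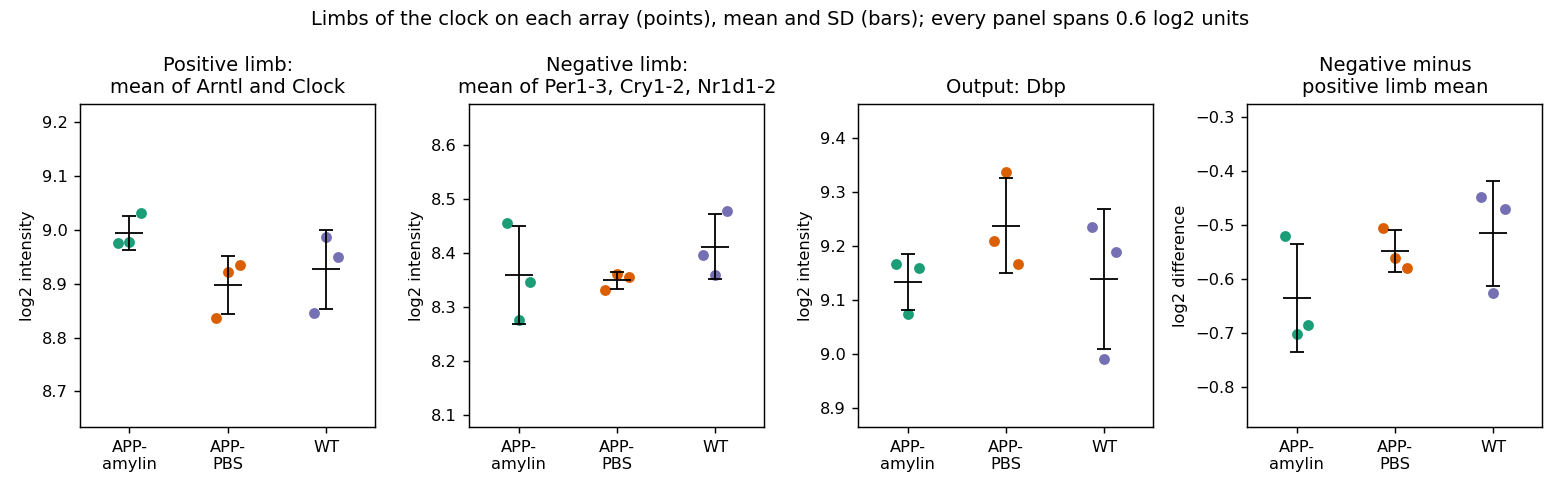
Mean log2 intensity of the positive limb, the negative limb and Dbp, and the negative minus the positive limb, on each array (points) with group mean and SD (bars). The last panel shows overlapping groups with means of -0.64, -0.55 and -0.52 in APP-amylin, APP-PBS and WT mice.

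Profiles over the 9 arrays were compared by the root mean square of the difference between 2 genes, each centred on its own mean. Nr1d1, whose SD over the 9 arrays was 0.24, lay nearest to Per1 among the members, at 0.13. Per1 and Cry2 were nearest to each other, at 0.10, and Per3 lay nearest to Dbp, at 0.14, which is close to its own SD of 0.15. Outside the set the genes most like Nr1d1, Per3 and Per1 were Gdpgp1 (0.05), Anxa2 (0.04) and Nab2 (0.05), out of 19938 genes over 9 arrays.

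Beyond the 10 genes, 27 of 30 listed further genes of the clock were measured. Between APP-PBS and WT mice 2 fell and 0 rose (median difference -0.05), against 8.58% of all genes. Rora, the nuclear receptor that activates Arntl through the elements that REV-ERB represses, had 8.90, 9.09 and 8.88 on APP-amylin, 8.89, 9.05 and 8.92 on APP-PBS and 9.53, 9.56 and 9.41 on WT arrays. All 6 5xFAD arrays lay below the WT arrays. Rora fell by 0.55 ± 0.07 in APP-PBS and by 0.54 ± 0.07 in APP-amylin mice relative to WT (limma adjusted p = 0.00227 and 0.0037). Rora is also on the thalamic list, of which 11 of 13 fell in both comparisons, and its APP-amylin call was lost with the olfactory bulb marker mean as a term (-0.37, adjusted p = 0.0741). Its relative Rorb differed by -0.05 ± 0.11 in APP-PBS mice and did not pass.

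Csnk1d encodes casein kinase 1 delta, which phosphorylates PER proteins and sets the pace of the clock. It had 8.88, 8.86 and 8.78 on APP-amylin, 8.71, 8.74 and 8.70 on APP-PBS and 8.90, 8.86 and 8.99 on WT arrays. It fell by 0.20 ± 0.05 in APP-PBS relative to WT mice (limma adjusted p = 0.0454), a call that held in 8 of 19 other settings. It was lost without any one of the 3 APP-PBS or 3 WT arrays, or without APP-amylin replicate 2 (adjusted p = 0.0641); with single arrays left out the differences ran from -0.23 to -0.16.

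None of the repressors or outputs passed in any comparison by limma, with 2 of the 8 outputs at an unadjusted p under 0.05 between APP-amylin and WT mice, 1 between APP-amylin and APP-PBS mice and 0 elsewhere. The 4 further repressors, Bhlhe40, Bhlhe41, Ciart and Nfil3, differed between APP-PBS and WT mice by -0.12 to 0.03. Of the 8 outputs 0 passed; Tef, a relative of Dbp, differed by 0.12 ± 0.06 (limma adjusted p = 0.292) and Hlf, another, by -0.06 ± 0.05 (limma adjusted p = 0.577). Of the 12 measured modifiers of clock proteins only Csnk1d passed; the kinase subunit Csnk2a1 differed by 0.13 ± 0.05 and the ubiquitin ligase subunit Fbxw11 by -0.12 ± 0.05 (limma adjusted p = 0.167 and 0.192).

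Between APP-amylin and APP-PBS mice 0 of the 27 passed limma, 4 had an unadjusted p under 0.05, and the median difference was 0.05, against 0.00064 over all genes. Sirt1, a deacetylase that acts on BMAL1 and PER2, had 7.37, 7.45 and 7.50 on APP-amylin and 7.32, 7.22 and 7.26 on APP-PBS arrays. The groups did not overlap, with a difference of 0.18 ± 0.05 that did not pass (limma adjusted p = 0.664). Csnk1d differed by 0.12 ± 0.05 and the ubiquitin ligase subunit Btrc by 0.13 ± 0.06 (limma adjusted p = 0.714 and 0.717). Between APP-amylin and WT mice 1 of the 27 fell, Rora, and 0 rose, a share close to the 2.86% of all genes that fell; Nampt, an enzyme of NAD synthesis under clock control, differed by 0.16 ± 0.06 (limma adjusted p = 0.18).

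**Figure D5:**
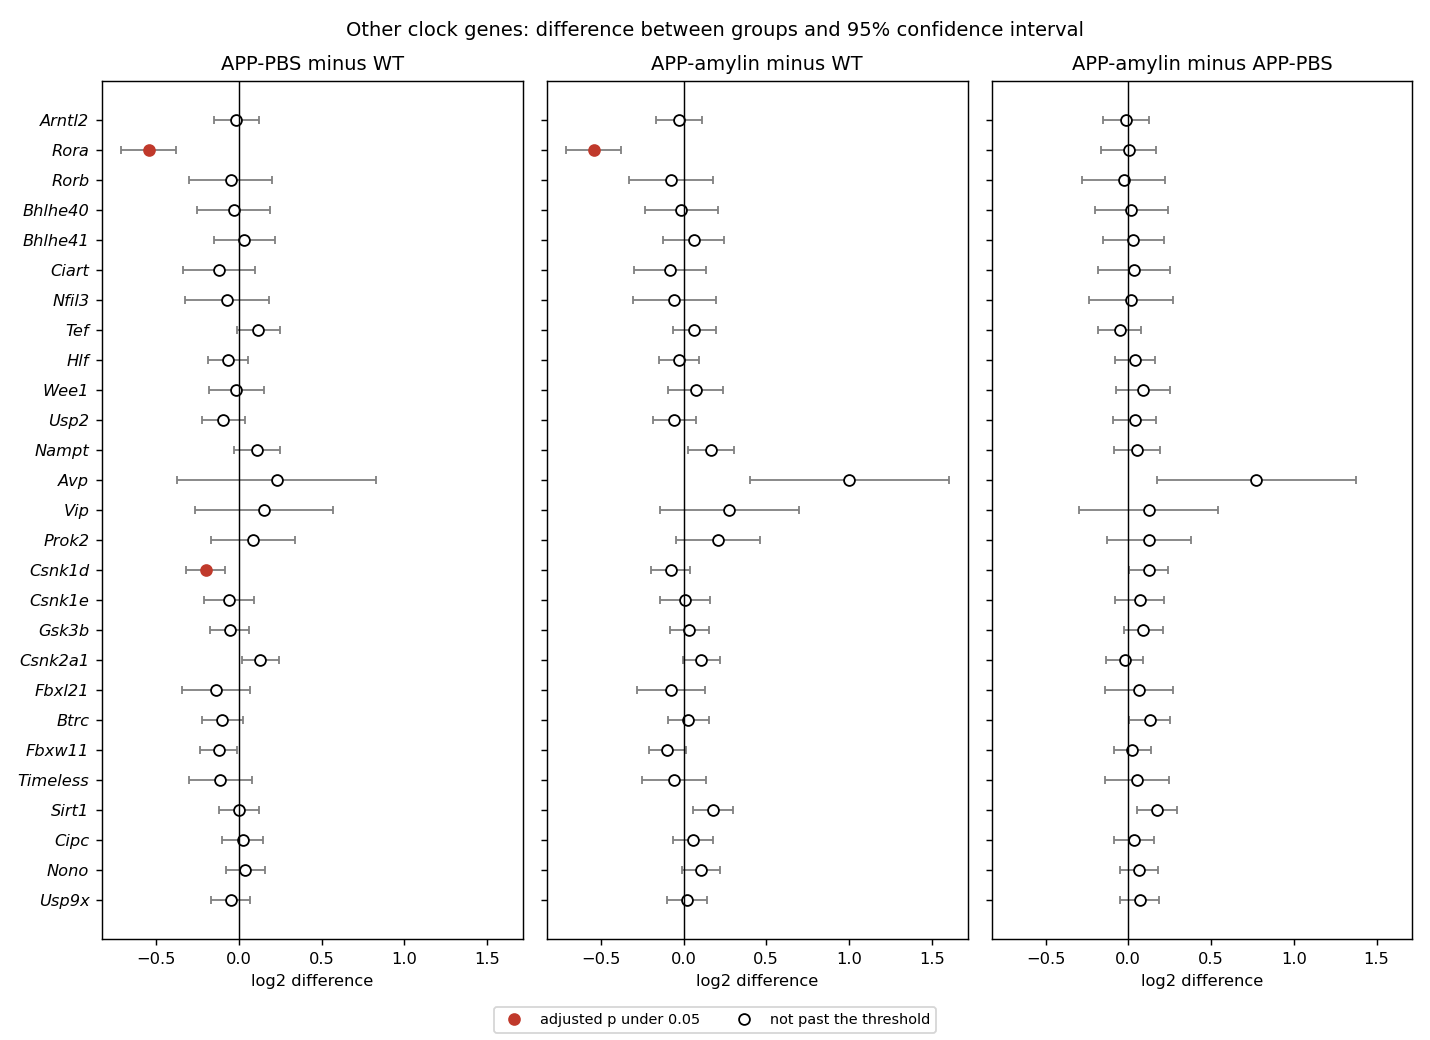
Log2 differences with 95% confidence intervals of the 27 further clock genes in the 3 comparisons. Rora passed in both comparisons with WT and Csnk1d in APP-PBS against WT (filled points); the intervals of Avp are the widest.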

How the data were processed

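The deposited table holds log2 intensities of 35556 probe sets on 9 arrays; per the submitters' processing notes the authors used RMA from oligo, an R package, with versions not stated. RMA corrects background, gives all arrays the same quantiles and summarises probes. For the array annotation, the sources used here name no genome build. Probe sets that name 1 gene symbol (21789) were kept, and of several per gene the one with the highest mean over 9 arrays, which left 19938 genes; dim genes stayed in. The Entrez IDs of all 10 clock genes matched RefSeq genes of GRCm38.p6.

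The 3 groups entered a single limma (3.58.1) model in R (4.3.3, with the data.table package at 1.17.8). Its variances were moderated with no trend, on 6 residual plus 3.53 prior degrees of freedom. P-values were adjusted by Benjamini-Hochberg over the 19938 genes. The fit was also run on simulated data with independent noise in each gene. Those data held no shift of regional content, so that run does not bear on the calls made here. The labels call the samples biological replicates. Replicate numbers were not taken as pairs in the main fit. Correlations of same-numbered deviations from group means ran from -0.06 to 0.18, and 5 of 9 arrays correlated best with an array of their own number. Whether the numbers mark a batch was not tested.

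The members and lists were chosen with earlier results of these data known. Named were all members, further clock genes that passed or had the 4 smallest p in a comparison, context genes with the 3 smallest p, and the genes of nearest profile; the text names part of these. Rorb, the repressors Bhlhe40, Bhlhe41, Ciart and Nfil3, the outputs Tef, Hlf and Vip, and Thra, Rgs16 and Grp were named after their values were seen. Alternatives were other normalizations, filters, priors and weights, the replicate number as a block, a regional term, and leaving out each array.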

Additional observations from a re-analysis of the deposited data

How the results depend on the processing

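The count of clock genes that changed between APP-PBS and WT mice, 2, became 1 with the olfactory bulb marker mean as a term and ran from 1 to 2 when single arrays were left out; the gene lost was Per3 each time (without APP-PBS replicate 2 or 3 or WT replicate 3). Between APP-amylin and WT mice the count of 1 became 2 with the lowest 50% of genes left out and at an adjusted p under 0.1, and 0 with the bulb term, and ran from 1 to 2 with single arrays left out; Cry1 was the gene added. Between APP-amylin and APP-PBS mice it was 0 in every setting tried. Over all genes the counts of 1710, 1 and 1039 (in the order APP-PBS against WT, amylin against PBS, amylin against WT) ran from 863 to 2301, 0 to 7 and 423 to 1350. Fits with the replicate number as a block gave 2, 0 and 1 clock genes, and 5 of 9 arrays correlated best with an array of their own number; Csnk1d was lost (adjusted p = 0.0857). The limb difference between APP-PBS and WT was -0.03 and changed sign in 3 settings: 0.045 with Arntl alone as the positive limb, 0.041 with the Per genes alone as the negative limb, and 0.0004 without WT replicate 1. Among single genes, sign changes were seen only in differences that were at most 0.09 in size and passed in no setting. With quantile normalization repeated they were 0.00504 for Per2 (APP-PBS against WT), -0.014 for Per1 and -0.021 for Rora (amylin against PBS) and 0.0057 for Dbp (amylin against WT). With arrays centred on their medians, Nr1d2 and Dbp turned to 0.0055 and 0.0038 (amylin against WT). With array weights, Per1 and Cry2 turned to -0.061 and -0.0091 (amylin against PBS). With the bulb term, Cry1 turned to -0.019 (APP-PBS against WT), Per1 to -0.025 (amylin against PBS) and Nr1d2 to 0.0900 (amylin against WT). With single arrays left out, differences between APP-PBS and WT ran from -0.015 to 0.0073 for Per2 and from -0.0039 to 0.077 for Clock. Those between amylin and PBS ran from -0.096 to 0.065 for Per1, -0.021 to 0.0695 for Cry2, -0.048 to 0.039 for Nr1d1 and -0.062 to 0.054 for Rora. Those between amylin and WT ran from -0.039 to 0.025 for Nr1d2 and -0.079 to 0.043 for Dbp. The causes were not tested.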

Other observations

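The cold-inducible RNA-binding proteins CIRBP and RBM3 follow the daily swing of body temperature in mice and act on clock transcripts. Cirbp had 9.20, 8.53 and 8.55 on APP-amylin arrays and 8.51, 8.30 and 8.35 on APP-PBS arrays, without overlap, a difference of 0.37 ± 0.16 that did not pass (limma adjusted p = 0.717). Rbm3 had 11.34, 10.34 and 10.60 on APP-amylin and 10.25, 10.25 and 10.08 on APP-PBS arrays, a difference of 0.57 ± 0.24 (limma adjusted p = 0.717). In both genes APP-amylin replicate 1 was the highest of the 9 arrays. That array was also the highest of its group for Per1, Per2, Cry1, Cry2, Nr1d2 and Dbp. All 5 measured temperature-responsive genes had higher means in APP-amylin than in APP-PBS mice (median difference 0.14), and 0 passed limma, with 2 at an unadjusted p under 0.05. Besides Cirbp and Rbm3 these were the heat shock genes Hspa1a (0.14 ± 0.08), Hsph1 (0.04 ± 0.08) and Hspa8 (0.05 ± 0.06). The list thus mixes cold-inducible and heat shock genes, and its shared direction is not read as a response to temperature, which was not tested.

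Markers of the suprachiasmatic nucleus, the master clock of the hypothalamus, were on the lists as well, though the RNA is described as cortex. Of the 8 measured markers of this nucleus 2 fell and 0 rose in each comparison with WT, where 4.92% (APP-PBS) and 2.86% (APP-amylin) of all genes fell, and 0 passed between APP-amylin and APP-PBS mice by limma, with 1 at an unadjusted p under 0.05. Relative to WT mice, 3 means were higher and 5 lower in APP-PBS mice (median difference -0.04). In APP-amylin mice 5 were higher and 3 lower (median difference 0.08). Grp, the gastrin-releasing peptide gene, averaged 7.02 ± 0.36 on APP-amylin, 7.27 ± 0.24 on APP-PBS and 8.48 ± 0.07 on WT arrays (SD, n = 3 each), without overlap between either 5xFAD group and WT. It fell by 1.46 ± 0.17 in APP-amylin and by 1.20 ± 0.17 in APP-PBS mice relative to WT (limma adjusted p = 0.00157 and 0.00275). Rgs16, a regulator of G protein signalling, fell by 0.84 ± 0.15 in APP-amylin and by 0.75 ± 0.15 in APP-PBS mice relative to WT (limma adjusted p = 0.013 and 0.015). In both comparisons 11 of 13 thalamic markers fell too, and the part of regional content in the Grp and Rgs16 values was not tested. Avp, the vasopressin gene, had 7.34, 8.41 and 7.43 on APP-amylin, 7.27, 6.54 and 7.04 on APP-PBS and 6.62, 6.75 and 6.80 on WT arrays. The differences were 0.77 ± 0.27 between APP-amylin and APP-PBS mice and 1.00 ± 0.27 between APP-amylin and WT mice, and neither passed (limma adjusted p = 0.683 and 0.066). Vip differed by 0.12 ± 0.19 between APP-amylin and APP-PBS mice (limma adjusted p = 0.91).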
